A study of Arabidopsis thaliana with 8 samples.

Results

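The alpha-expansin genes of Arabidopsis thaliana were followed through leaves of 2 plant lines grown with and without salt. A gene was taken as a member where a probe set annotated to that gene alone carries a symbol made of EXPA and a number, and 10 genes met this rule among the 13350 genes with a probe set of their own: EXPA4, EXPA7, EXPA8, EXPA9, EXPA15, EXPA16, EXPA18, EXPA20, EXPA21 and EXPA24. Each had 1 probe set. The RefSeq annotation TAIR10.1 lists 24 genes with such symbols, and the other 14 were not analysed here as single genes. RNA of 4 groups was hybridised to 8 Affymetrix arrays, with 2 arrays a group: wild type Col with 0 mM NaCl, Col with 100 mM NaCl, the M6PR transgenic with 0 mM and M6PR with 100 mM. M6PR is named for mannose-6-phosphate reductase, an enzyme of mannitol synthesis in celery, and the series describes the line as salt-tolerant and mannitol-producing. All plants were sampled 20 days after sowing in short days, the salted ones 6 days into a treatment raised in steps of 50 mM. Leaves came from at least 15 seedlings, and the series calls the 2 samples of a group biological replicates. The promoter of the transgene and the number of independent transformants are not given in the sources used here. For M6PR the sample descriptions give Ws as the accession, not Col, and the Col arrays are shared with another series, so accession, array set and transgene cannot be told apart in any comparison of the lines.

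Expansins are small secreted proteins that loosen the plant cell wall without cutting its polymers. They act best at acid pH and let cellulose and xyloglucan slide past each other, so that turgor can enlarge the cell. The alpha-expansins form the largest of the expansin families of Arabidopsis, and single members are known for particular organs, such as EXPA7 and EXPA18 for root hairs. In growing leaves, expansin transcripts accompany cell enlargement, and auxin, gibberellin and brassinosteroid are known to raise several of them.

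The values are log2 intensities with a shared floor of 2.15, and 27.9% to 29.2% of the probe sets on each array lay within 0.01 of it. Values under log2 4 are treated here as background, a level set after the values had been seen. The array labelled M6PR 100 mM replicate 1 correlated best with M6PR 0 mM replicate 1 (Pearson r 0.983 across probe sets) and slightly less with its own replicate (0.982). Col 100 mM replicate 2 correlated best with M6PR 100 mM replicate 2 (0.991) and less with its own replicate (0.984). For the expansin, wall and growth genes, results that change without one of these arrays are given with and without it. Of the 22 leaf photosynthesis markers listed, 4 were measured (RCA, LHCB4.1, LHCB4.2 and LHCB4.3), and log2 of their summed intensity was 15.9 to 16.4 on all arrays, a sum that the brightest of them carry. The 2 measured root markers are EXPA7 and EXPA18 themselves. Fewer cells of a type and less RNA per cell cannot be told apart in pooled leaves.

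The family divided into 5 genes with a mean of at least log2 4 (EXPA4, EXPA8, EXPA9, EXPA15 and EXPA16) and 5 genes below background on all 8 arrays. Among the first 5, both Col 0 mM arrays lay above all other arrays for EXPA4, EXPA8 and EXPA16, whereas EXPA15 was brightest in Col 100 mM and EXPA9 in M6PR 0 mM. Of the 12849 probe sets with a mean of at least log2 4, 20.3% had both Col 0 mM arrays above the other 6, against these 3 of 5 genes. The same held for Col 100 mM in 15.8% and for M6PR 0 mM in 12.4%, against 1 gene each. Both M6PR 0 mM arrays lay below the other 6 in 11% of these probe sets, against 2 of the 5 genes (EXPA4 and EXPA15). Both Col 100 mM arrays did so in 15%, against 1 gene (EXPA16).

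**Figure D1:**
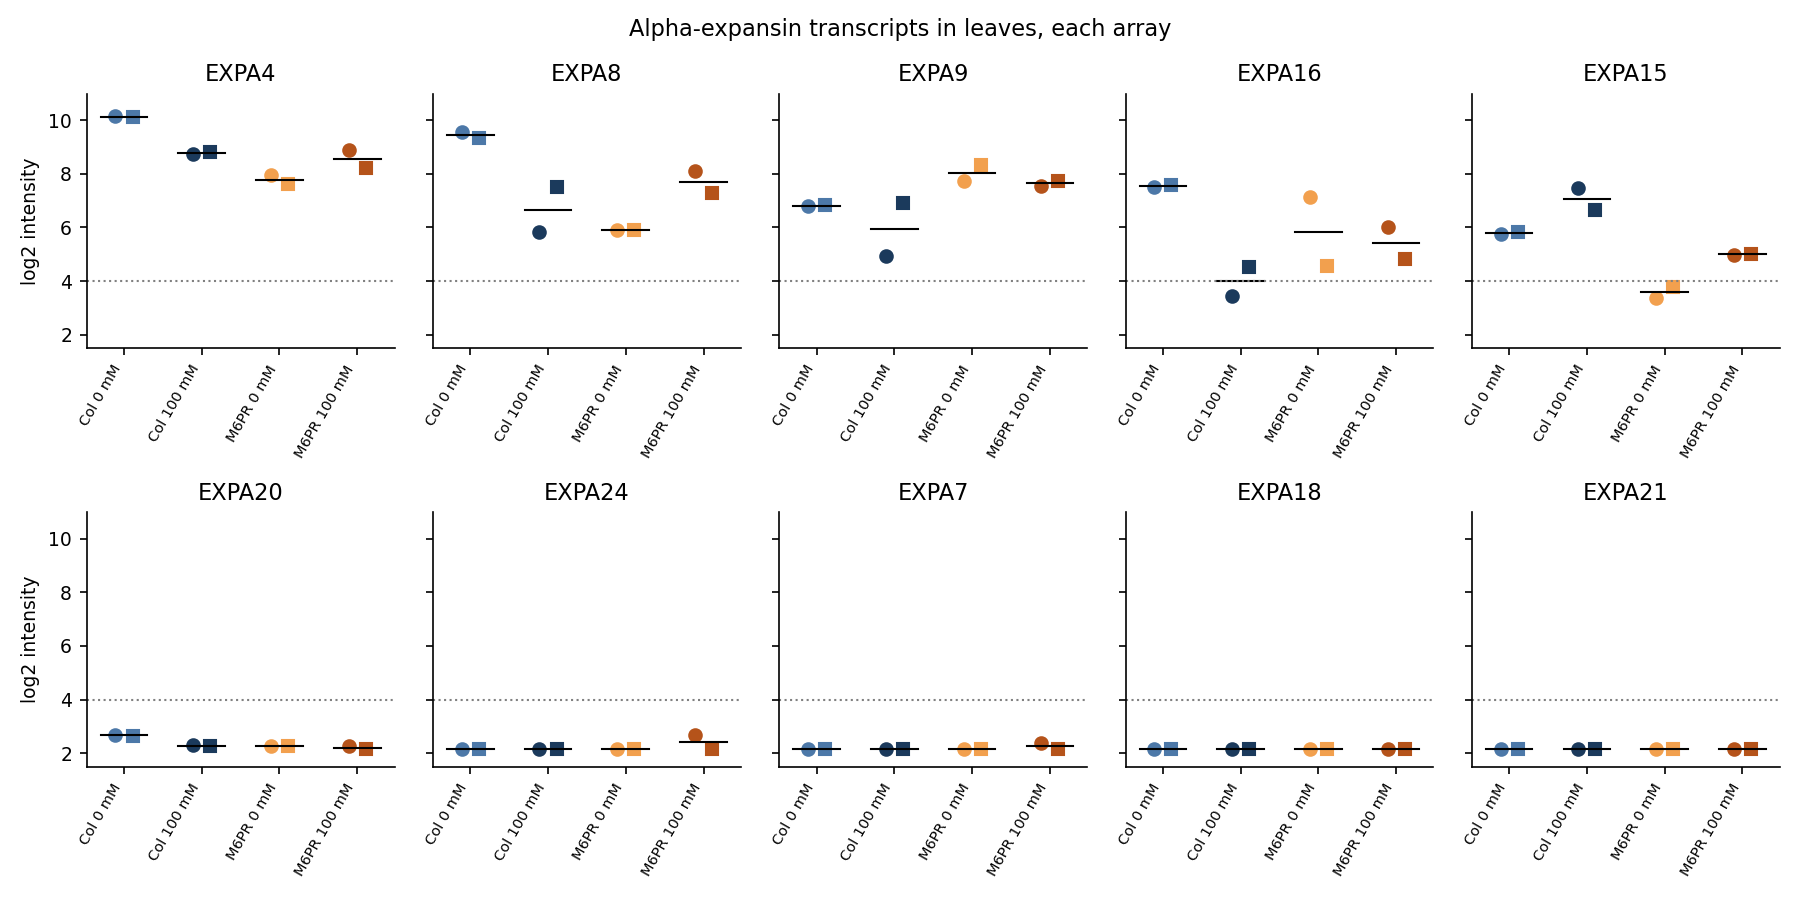
Log2 intensity of each alpha-expansin gene (vertical axis) on every array, by group (horizontal axis). Circles are replicate 1, squares replicate 2, short lines group means and the dotted line the background level of log2 4. The 5 genes of the upper row reach values between 7.47 and 10.16, and the 5 of the lower row stay at or below 2.69.

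EXPA4, a member also studied in pollen tube growth, measured 10.16 and 10.12 in Col 0 mM and 8.75 and 8.83 in Col 100 mM. In M6PR it measured 7.96 and 7.62 without salt and 8.90 and 8.20 with salt. Its order was therefore Col 0 mM first, the 2 salted groups in the middle with overlapping arrays, and M6PR 0 mM last, with no overlap to the group above.

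EXPA8 measured 9.57 and 9.34 in Col 0 mM, 5.82 and 7.50 in Col 100 mM, 5.90 and 5.90 in M6PR 0 mM and 8.11 and 7.27 in M6PR 100 mM. Only Col 0 mM was set apart from the next group, since the arrays of M6PR 100 mM overlapped those of Col 100 mM and these overlapped those of M6PR 0 mM. The Col 100 mM replicates differed more than those of any other group (SD 1.19, n = 2).

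EXPA16 measured 7.50 and 7.59 in Col 0 mM, 3.45 and 4.53 in Col 100 mM, 7.12 and 4.54 in M6PR 0 mM and 6.03 and 4.81 in M6PR 100 mM. Its replicates agreed closely in Col 0 mM only (SD 0.06, n = 2), against an SD of 1.82 in M6PR 0 mM. Col 100 mM was the dimmest group, with 1 of its 2 arrays below background.

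EXPA15 measured 5.77 and 5.81 in Col 0 mM, 7.47 and 6.66 in Col 100 mM, 3.35 and 3.80 in M6PR 0 mM and 4.97 and 5.03 in M6PR 100 mM. No pair of neighbouring groups overlapped, in the order Col 100 mM, Col 0 mM, M6PR 100 mM and M6PR 0 mM, so the salted group stood above the unsalted one within each line and Col above M6PR at each salt level.

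EXPA9 went another way, with its higher values in M6PR. It measured 7.74 and 8.34 in M6PR 0 mM, 7.57 and 7.73 in M6PR 100 mM, 6.81 and 6.82 in Col 0 mM, and 4.95 and 6.93 in Col 100 mM. All 4 M6PR arrays lay above all 4 Col arrays, and the 2 Col groups overlapped. How many of all probe sets part the lines in this way was not counted.

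The other 5 genes gave no signal above background in these leaves. EXPA18, the root hair member, and EXPA21 were at the floor on 8 of 8 arrays, and EXPA7 and EXPA24 on 7 of 8. EXPA20 ranged from 2.15 to 2.68, with 2.68 and 2.65 in Col 0 mM as its highest values. EXPA21 and EXPA24 are the outer genes of a row of 6 expansin genes that follow each other on their chromosome with 0 other protein-coding genes between them. The 4 inner genes of this row, EXPA22, EXPA23, EXP26 and EXPA25, share 2 probe sets that cannot separate them, and both probe sets were at the floor on 8 of 8 arrays. No gene of that row therefore reached background, although a probe set at the floor gives only an upper bound.

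Without salt, the question was how the M6PR line differs from wild type before any stress. EXPA4 and EXPA15 were lower in M6PR, and EXPA20 was called lower with both groups below background. That is 3 of 10 genes called, all of them lower, whereas limma called 7.03% of the 22746 probe sets in either direction (3.06% lower) at an adjusted p under 0.05. Among probe sets with a mean of at least log2 4, 2 of the 5 members were called, against 11.1% of all such probe sets.

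EXPA4 averaged 7.79 ± 0.25 (SD, n = 2) in M6PR and 10.14 ± 0.02 (SD, n = 2) in Col, a log2 difference of −2.35 (SE 0.27), which is 5.10-fold lower (limma, adjusted p 0.0199). EXPA15 averaged 3.57 ± 0.31 (SD, n = 2) in M6PR and 5.79 ± 0.03 (SD, n = 2) in Col, a log2 difference of −2.22 (SE 0.31, adjusted p 0.0305). As both M6PR arrays lay below background, the fold is a lower bound, at least 3.46-fold. Both genes were thus lower by more than the spread of either group.

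The largest measured difference belonged to EXPA8, at 5.90 ± 0.01 (SD, n = 2) in M6PR against 9.45 ± 0.16 (SD, n = 2) in Col. Its log2 difference of −3.56 (SE 0.64, 11.8-fold) did not pass in the model of all 4 groups (limma, adjusted p 0.0522) and passed with only the 4 unsalted arrays in the fit (0.0241). The difference of EXPA16 was −1.71 (SE 1.03, adjusted p 0.540), and that of EXPA9 was 1.23 (SE 0.70, adjusted p 0.508). The arrays of the 2 groups did not overlap for any of these 5 genes, but the share of all probe sets without overlap was not counted. The separation is therefore not read as a trait of the family.

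These calls rest on small margins. EXPA4 lost its call without Col 0 mM replicate 1 (limma, adjusted p 0.0974) or 2 (0.0838), without M6PR 0 mM replicate 1 (0.0799) or 2 (0.0828) and without either Col 100 mM array (0.0536 each), and kept it without either M6PR 100 mM array (0.0127 each). EXPA15 lost its call without Col 0 mM replicate 1 (0.136) or 2 (0.127), without M6PR 0 mM replicate 1 (0.137) or 2 (0.0870), without either M6PR 100 mM array (0.0612 each) and with only the 4 unsalted arrays in the fit (0.0605). It kept its call without either Col 100 mM array (0.0281 each), where EXPA8 also passed (0.0353 each). EXPA20 lost its call without Col 0 mM replicate 1 (0.0691) or 2 (0.0511) and without M6PR 0 mM replicate 1 (0.0778) or 2 (0.0616). Without single arrays the difference of EXPA4 ran from −2.52 to −2.18, that of EXPA8 from −3.67 to −3.44, that of EXPA15 from −2.44 to −1.99 and that of EXPA9 from 0.93 to 1.53. That of EXPA16 rests on its M6PR 0 mM arrays, at −3.0 without replicate 1 and −0.43 without replicate 2.

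**Figure D2:**
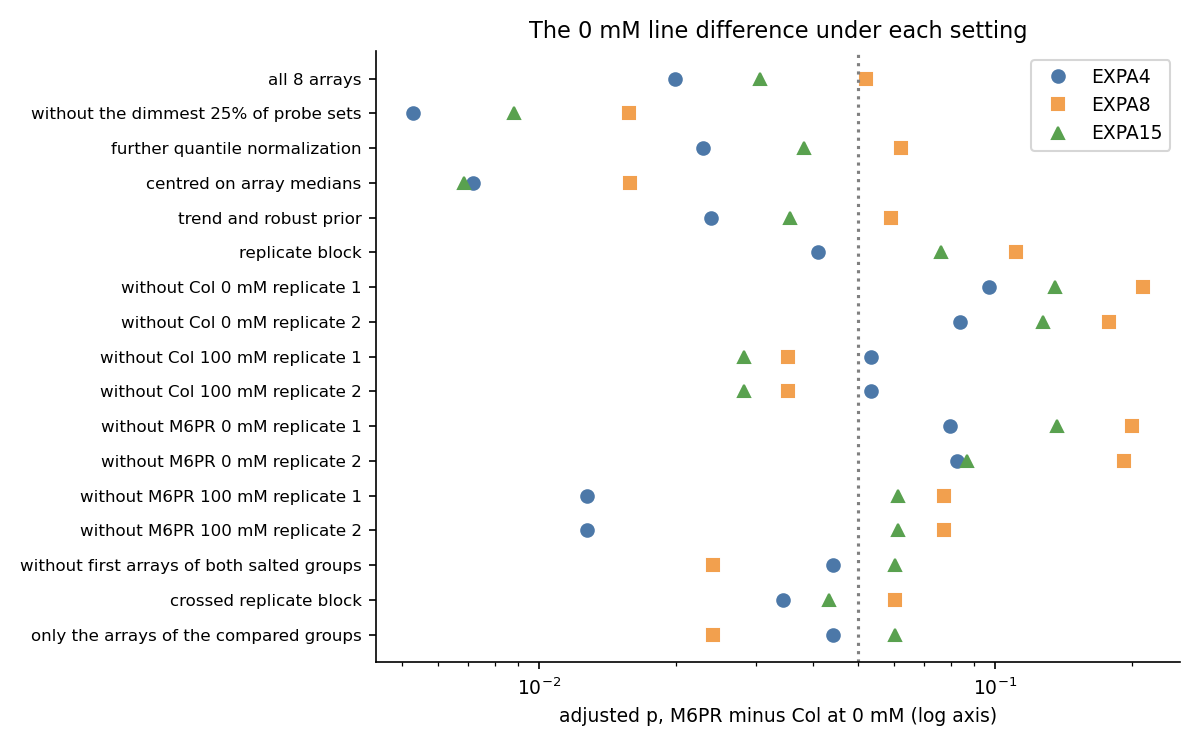
Adjusted p (horizontal log axis) of the difference between M6PR and Col at 0 mM for EXPA4, EXPA8 and EXPA15 under each setting (vertical axis), with the threshold of 0.05 dotted. EXPA8 lies just right of the threshold in the model of all arrays. Without any 1 array of the 2 compared groups all 3 genes lie to its right, and with dim probe sets dropped or arrays centred all 3 lie to its left.

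The response of the wild type to NaCl was read from its salted against its unsalted arrays. Of the 10 genes 1 passed the test, EXPA20, which was lower (adjusted p 0.0194) with both groups below background, while limma called 5.24% of all probe sets (2.99% lower). None of the 5 genes above background passed, against 7.53% of the probe sets with a mean of at least log2 4. The 2 groups did not overlap for 4 of these 5 genes, and the share of all probe sets without overlap was not counted. In the same comparison LHCB4.3, a light-harvesting gene of the leaf marker list, was called lower (−1.73, 3.33-fold, limma, adjusted p 0.0173), while LHCB4.2 differed by −0.84 (adjusted p 0.150), RCA by −0.23 (0.0689) and LHCB4.1 by −0.07 (0.332). Its part in the expansin values was not tested.

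For EXPA4 the salt difference in Col was −1.35 (SE 0.27, 2.55-fold, limma, adjusted p 0.0646), with means of 8.79 ± 0.06 and 10.14 ± 0.02 (SD, n = 2). For EXPA8 it was −2.80 (SE 0.64, 6.95-fold, adjusted p 0.0803), with 6.66 ± 1.19 against 9.45 ± 0.16 (SD, n = 2). For EXPA16 it was −3.56 (SE 1.03, adjusted p 0.118), at least 9.72-fold since 1 salted array lay below background. These 3 genes had lower values on both salted Col arrays than on both unsalted ones, but the test did not separate the groups.

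EXPA15 pointed up with salt, at 7.07 ± 0.58 against 5.79 ± 0.03 (SD, n = 2), a difference of 1.27 (SE 0.31, 2.42-fold, limma, adjusted p 0.0911). EXPA9 differed by −0.88 (SE 0.70, adjusted p 0.516), and this difference rests on 1 array: without Col 100 mM replicate 1 it was 0.11. Without Col 100 mM replicate 2 the tests of EXPA8 (−3.64, adjusted p 0.0307) and EXPA15 (1.68, adjusted p 0.0378) passed. Without either M6PR 100 mM array EXPA4 passed (0.0273 each). EXPA20 missed the threshold without Col 0 mM replicate 1 (0.0853) or 2 (0.0632), Col 100 mM replicate 1 (0.0598) or either M6PR 0 mM array (0.0706 each).

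In M6PR, the differences with salt were 0.76 for EXPA4 (SE 0.27, limma, adjusted p 0.432) and 1.79 for EXPA8 (SE 0.64, 3.47-fold, adjusted p 0.443), both in the direction opposite to Col. EXPA15 differed by 1.42 (SE 0.31, adjusted p 0.226, at least 2.00-fold), the same direction as in Col, and its arrays did not overlap in either line. EXPA16 (−0.41, SE 1.03) and EXPA9 (−0.39, SE 0.70) both had an adjusted p of 1. Of the 10 genes 0 were called, where limma called 0.171% of all probe sets and 2405 of them had an unadjusted p under 0.05. The unadjusted p was under that level for EXPA4 (0.0406), EXPA8 (0.0430) and EXPA15 (0.00832).

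The doubted array, M6PR 100 mM replicate 1, bears on these salt differences. Without it they were 0.41 for EXPA4, 1.38 for EXPA8, 1.45 for EXPA15 and −1.02 for EXPA16, and without replicate 2 they were 1.11, 2.21, 1.39 and 0.19. Without M6PR 0 mM replicate 1 that of EXPA16 was 0.88. Without replicate 2 of M6PR 100 mM, EXPA7 and EXPA24 were called higher with both groups below background, and 2 calls among 10 genes then stood beside 3.64% of all probe sets.

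With 100 mM NaCl in both lines, EXPA15 was dimmer on both M6PR arrays than on both Col arrays, with 5.0 ± 0.04 against 7.07 ± 0.58 (SD, n = 2), a difference of −2.07 (SE 0.31, 4.19-fold) that missed the threshold (limma, adjusted p 0.159). Its 95% confidence interval, like the others given here not adjusted for the number of probe sets, ran from −2.91 to −1.23. EXPA9 was at 7.65 ± 0.12 against 5.94 ± 1.40 (SD, n = 2), a difference of 1.71 (SE 0.70, adjusted p 0.413). EXPA4 (−0.23, SE 0.27, adjusted p 0.807) and EXPA8 (1.03, SE 0.64, adjusted p 0.560) had overlapping arrays. The 95% confidence interval for EXPA4 ran from −0.95 to 0.48. The difference without salt (−2.35) lies outside it, but the direct test of the change, the interaction given below, did not pass (limma, adjusted p 0.0883). EXPA16 differed by 1.43 (SE 1.03, adjusted p 0.578, at least 2.23-fold). Of the 10 genes 0 were called, where limma called 0.136% of all probe sets and 2947 had an unadjusted p under 0.05. Without Col 100 mM replicate 2, EXPA15 (−2.47, adjusted p 0.0212) and EXPA9 (2.70, adjusted p 0.0369) passed, and 5.33% of all probe sets did. Without Col 100 mM replicate 1 these differences were −1.66 (adjusted p 0.114) and 0.72 (adjusted p 0.666), and 1.61% of all probe sets passed. The difference of EXPA8 was 0.19 without Col 100 mM replicate 1 and 1.88 without replicate 2, and that of EXPA16 was 0.83 without M6PR 100 mM replicate 1 and 2.04 without replicate 2. Without M6PR 100 mM replicate 2, EXPA7 and EXPA24 passed, again below background, beside 4.46% of all probe sets.

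**Figure D3:**
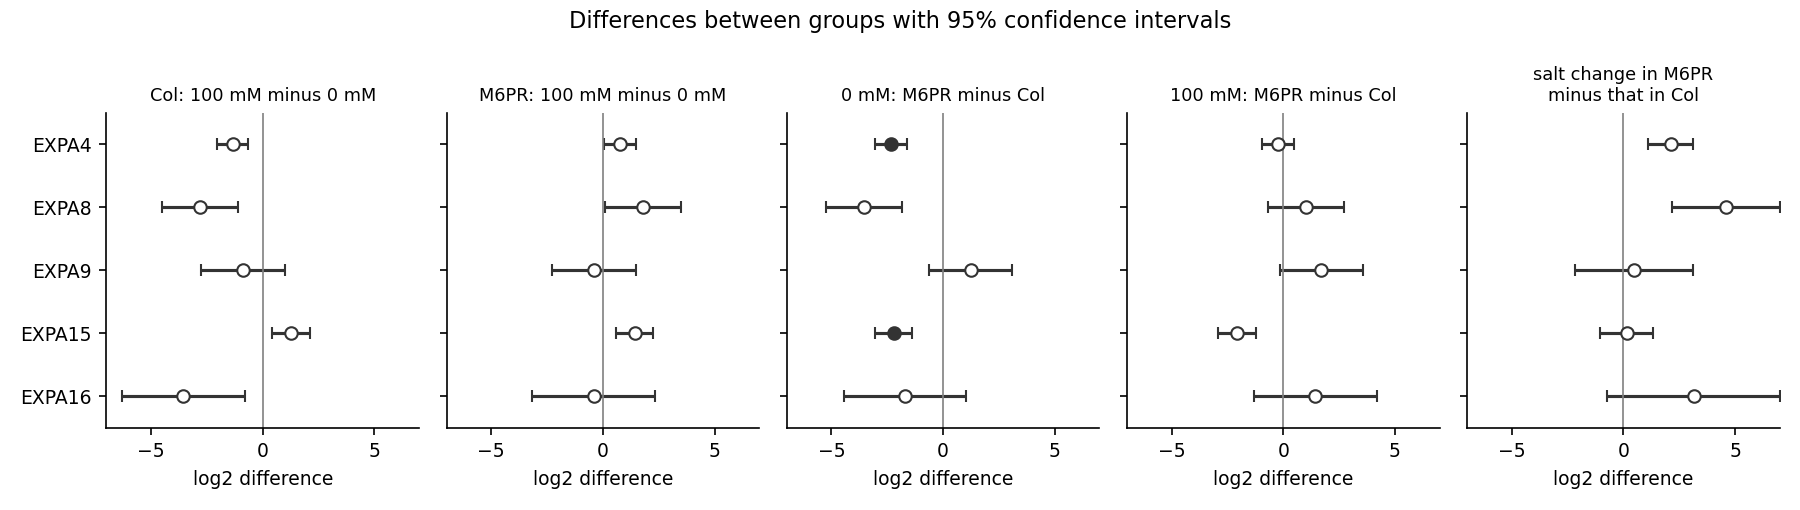
Log2 differences (horizontal axes) of the 5 genes above background in the 5 comparisons, with bars for 95% confidence intervals from the limma model on 8 arrays. The intervals are not adjusted for the number of probe sets. Filled points have an adjusted p under 0.05, which holds for EXPA4 and EXPA15 between the unsalted lines, while the salt differences of EXPA4 and EXPA8 lie on opposite sides of 0 in Col and M6PR.

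Whether salt acted differently in the lines was tested by the interaction, the salt difference in M6PR minus that in Col. It was 2.12 for EXPA4 (SE 0.38, limma, adjusted p 0.0883), 4.59 for EXPA8 (SE 0.90, adjusted p 0.103) and 3.15 for EXPA16 (SE 1.45, adjusted p 0.365). It was 0.15 for EXPA15 (SE 0.44, adjusted p 1, 95% confidence interval −1.04 to 1.34) and 0.48 for EXPA9 (SE 0.99, adjusted p 0.945). So the opposite directions of EXPA4 and EXPA8 in the 2 lines did not pass the test of the difference itself, and for EXPA15 the measured salt differences were 1.27 in Col and 1.42 in M6PR. Of the 10 genes 0 were called, against 1.45% of all probe sets, and 4161 probe sets had an unadjusted p under 0.05, EXPA4 (0.00365) and EXPA8 (0.00538) among them. EXPA4 passed without M6PR 100 mM replicate 2 (2.47, adjusted p 0.0194), and EXPA8 without Col 100 mM replicate 2 (5.43, adjusted p 0.0301). EXPA20, below background throughout, passed without either M6PR 100 mM array (0.0484 without replicate 1 and 0.0112 without replicate 2), and EXPA7 and EXPA24 without replicate 2, again below background.

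The other wall genes measured here included both directions. Beta-expansins, the sister family best known from grass pollen, had 4 of 6 listed genes measured and 2 above background. EXPB1 measured 9.15 and 9.16 in Col 0 mM, 6.18 and 7.08 in Col 100 mM, 6.70 and 6.20 in M6PR 0 mM and 8.03 and 7.21 in M6PR 100 mM, so both Col 0 mM arrays were the brightest. It was lower in M6PR without salt (−2.71, SE 0.44, 6.53-fold, limma, adjusted p 0.0433), a call lost without any 1 of the 8 arrays (adjusted p 0.0511 to 0.177). EXPB3 differed by −1.90 there (adjusted p 0.0539) and by −0.09 with salt in Col. The median of the 4 genes, 2 of them below background, was −0.95 between the unsalted lines, with 0 called higher and 1 lower. Of all probe sets, limma called 3.97% higher and 3.06% lower there. The median of all 22746 probe sets was 0.00, and that of the probe sets with a mean of at least log2 4 was −0.08.

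Of the xyloglucan endotransglucosylase/hydrolases, which cut and rejoin xyloglucan chains, 9 of 37 listed names were measured and 5 lay above background. XTH32 was lower in M6PR without salt (9.65 against 11.26, −1.61, SE 0.18, limma, adjusted p 0.0202), a call lost without either Col 0 mM array (0.0927 and 0.0890) or either M6PR 0 mM array (0.105 and 0.0741). XTH19 was higher with salt in Col (4.42, SE 0.63, adjusted p 0.0400), a call lost without any Col array (0.0732 to 0.159) and without either M6PR 0 mM array (0.0841 each). The list thus had 1 of 9 measured members called in each of these comparisons, in opposite directions. Of all probe sets, limma called 7.03% between the unsalted lines and 5.24% for salt in Col. Between the unsalted lines the other 4 genes above background had positive differences that did not pass, 4.70 for XTH33 (adjusted p 0.0618), 4.53 for XTH18 (0.125), 3.41 for XTH16 (0.140) and 1.82 for XTH19 (0.217). Of the 4 expansin-like genes, which resemble expansins in sequence and have no known wall-loosening activity, EXLA1 and EXLA2 were called higher in M6PR without salt (9.06, adjusted p 0.00595, and 4.76, adjusted p 0.0390, both by limma), and EXLA1 also with salt in Col (6.82, adjusted p 0.0119). Between the unsalted lines EXLA1 kept its call without any 1 array, and EXLA2 lost it without any Col or M6PR 0 mM array (0.0895 to 0.174). With salt in Col EXLA1 missed the threshold without either M6PR 0 mM array (0.0520 each). The interaction of EXLA1 was −8.24 (adjusted p 0.0288), a call lost without either Col 0 mM array (0.0671 and 0.0510) or either M6PR 0 mM array (0.0873 and 0.0666). The alpha-expansins thus had 0 genes called higher and the expansin-like genes 0 called lower between the unsalted lines. As limma called 3.97% of all probe sets higher and 3.06% lower there, these counts of 0 are not read as traits of the families. The comparison of the unsalted lines and that of salt in Col subtract the same Col 0 mM arrays.

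**Figure D4:**
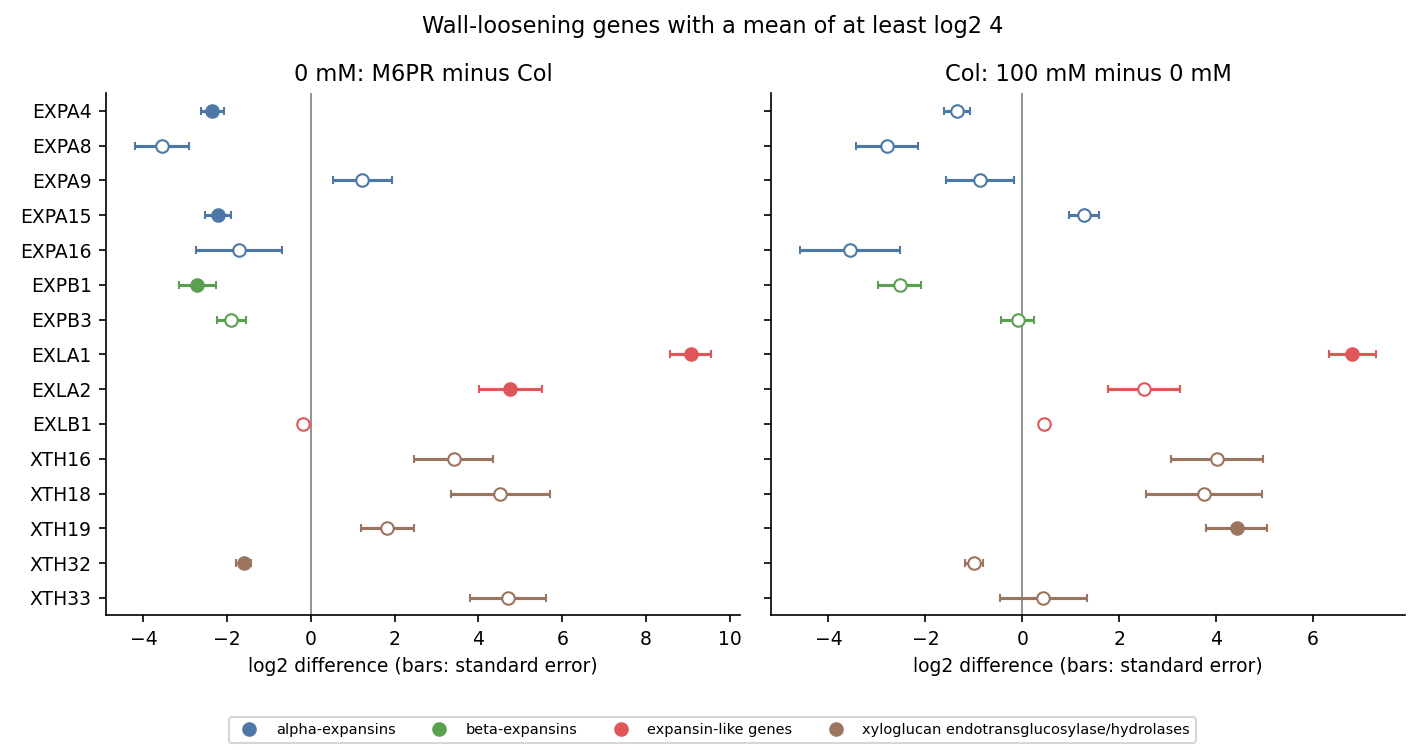
Log2 differences with SE (horizontal axes) of the expansin, expansin-like and xyloglucan endotransglucosylase/hydrolase genes whose mean was at least log2 4, by family (colours). The panels show M6PR minus Col at 0 mM and salt in Col. Filled points have an adjusted p under 0.05. Of the alpha-expansins, EXPA9 alone lies above 0 on the left and EXPA15 alone on the right, and both panels share the Col 0 mM arrays.

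Among the other listed wall and growth genes, the cellulose synthesis list had 1 of 20 names measured (COB, 0 calls). The list drawn up for growth regulators had 2 of 29 (IAA29 and NAI1), and NAI1 is not read here as a growth regulator. IAA29, an auxin-induced repressor of auxin signalling, was called lower in M6PR without salt (adjusted p 0.0484), with group means of 2.15 and 3.71, both below background. This call was lost without either Col 100 mM array (0.106 each), either M6PR 0 mM array (0.191 and 0.181) or either M6PR 100 mM array (0.0886 each). No plasma membrane proton pump, the source of wall acidity, had a probe set of its own in the table.

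Some markers of other leaf cells also differed between the groups. Of 8 listed trichome genes 2 were measured, GIS and TRY, and log2 of their summed intensity was 8.53 to 8.72 in Col 0 mM, 5.35 to 5.58 in Col 100 mM, 4.58 to 4.63 in M6PR 0 mM and 4.85 to 7.49 in M6PR 100 mM, with the upper value of the last on replicate 1. It was thus highest in Col 0 mM, like EXPA4, EXPA8 and EXPA16. That order is common, as 20.3% of the probe sets with a mean of at least log2 4 had both Col 0 mM arrays above all others. GIS was called lower in M6PR without salt (limma, adjusted p 0.0311) and with salt in Col (0.0493). TRY, the brighter of the 2, did not pass in either comparison (−4.08, adjusted p 0.105, and −3.09, adjusted p 0.141). Values without single arrays are not given for these 2 genes. Of 11 listed stomatal lineage genes, SPCH and MUTE were measured. Their sums were 3.17 to 3.36 outside Col 100 mM and 4.37 to 4.70 in it, the group where EXPA15 was brightest. These sums lie near background. MUTE stayed at 2.15 to 2.30 on all arrays, and SPCH passed log2 4 in Col 100 mM only, at 4.40 and 4.02. Of 13 genes of young growing leaves, ARL, which promotes cell expansion, was measured, at 3.85 to 4.83 in Col 0 mM and 5.72 to 8.17 elsewhere. None of the 11 flower and pollen genes listed had a probe set of its own. The part of these cells in the expansin differences was not tested.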

How the data were processed

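The authors deposited log2 intensities by probe set. GCOS and RMA appear in the submitters' processing notes with no version, and whether the arrays of the other series entered the normalization is not stated. Sample titles gave the groups. Without 64 array controls, 22746 probe sets remained for the tests, of which 13513 had 1 gene in the platform table, 503 several and 8730 none. Of the first, 13436 matched RefSeq TAIR10.1, used for names and gene order only. Every member had 1 probe set, so no choice between probe sets arose.

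The limma package 3.58.1 (R version 4.3.3) fitted a mean for each group to the 8 arrays (residual degrees of freedom 4, prior 0.409), with two-sided Benjamini-Hochberg adjustment over all probe sets. The fit was also run on simulated data with independent normal noise of equal spread in all groups. As the groups here differ in spread, nothing is concluded from that run. Labels name 2 replicate pots per genotype and salt level, and 2 arrays a group limit the precision. A fold is a lower bound where an array of the dimmer group lay below log2 4, that array then counting as 4, and none is given where both means did. Members, lists and comparisons were chosen with earlier results of these data known. All members are named, and of each wall list up to 3 called genes per direction and comparison, with 3 most alike genes for EXPA4 and EXPA15. The alternatives tried were a filter on the dimmest 25% of probe sets, quantile normalization, median centring, a trended robust prior, a replicate block, only the compared groups, a 2-fold minimum and the omission of single arrays. Chosen with the values in view were the omission of replicate 1 of both salted groups and a crossed block. Protein and promoter sequences were not used here.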

Additional observations from a re-analysis of the deposited data

How the results depend on the processing

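With 2 arrays a group, which genes pass depends on the settings, while the directions of the called genes did not turn under any of them. Dropping the dimmest 25% of probe sets (prior degrees of freedom 1.52 instead of 0.409) gave 5 called members for salt in Col, beside 20.5% of all probe sets, and 2 for the interaction (6.01%). Centring on array medians moved the median of all probe sets by −0.22 for salt in Col and by 0.20 for both the lines at 100 mM and the interaction, and gave 4 called members for salt in Col (18.7%) and 2 for the interaction (4.49%, EXPA4 and EXPA8). None of the 5 genes above background turned direction under it. It also moved the split of all calls from 512 higher and 681 lower to 1388 and 2866 for salt in Col, from 2 and 37 to 46 and 198 for salt in M6PR, and from 8 and 23 to 77 and 62 for the lines at 100 mM. A further quantile normalization gave 1 called member for the interaction (EXPA20, 1.44%). With only the Col arrays 2 members were called for salt in Col (3.48%), and with a 2-fold minimum 0 (3.29%). A mean over all probe sets of a gene was not run, as each member has 1.

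Without replicate 1 of both salted groups 2 members were called for salt in Col (7.98%) and 1 for the interaction (3.96%), and EXPA9 turned to 0.11 for salt in Col and −0.43 for the interaction, and EXPA8 to −0.22 between the lines at 100 mM. Without single arrays, called members ranged from 0 to 3 for salt in Col (1.11% to 11.5% of all probe sets), 0 to 2 for salt in M6PR (0.044% to 3.64%), 0 to 3 for the unsalted lines (2.34% to 8.02%), 0 to 2 for the salted lines (0.0308% to 5.33%) and 0 to 4 for the interaction (1.09% to 9.82%), the cause not being tested. Differences that turned sign without single arrays, none of them called, ranged from −1.87 to 0.11 for EXPA9 with salt in Col, −1.70 to 0.88 for EXPA16 with salt in M6PR, −0.59 to 0.12 for EXPA4 between the salted lines, and −0.51 to 1.47 for EXPA9 and −0.26 to 0.56 for EXPA15 in the interaction.

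The replicate deviations correlated at 0.49 between M6PR 0 mM and M6PR 100 mM, and from −0.15 to 0.08 between the other pairs of groups. The shared replicate numbers thus do not show a pairing common to all 4 groups, and a pairing within M6PR alone was not tested. With the replicate block 1 member was called for salt in Col (2.18%), 2 between the unsalted lines (4.26%), EXPA15 having an adjusted p of 0.0762, and 0 in the other comparisons (0.0132% to 0.233%). A block with the Col 100 mM numbers crossed gave 1 (4.33%), 3 (4.55%) and 0 (0.0132% to 0.426%).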

Other observations

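Over the 8 arrays, which share 4 groups of 2, the Pearson r between members above background was 0.89 for EXPA4 and EXPA8 and −0.87 for EXPA9 and EXPA15, with −0.45 to 0.66 for the other 8 pairs. Among the 3966 genes with a mean of at least log2 4 and a range of at least 1, those most alike to EXPA4 were AT4G04750 (r 0.99), AT1G48100 (0.99) and AT4G03260 (0.99). Those most alike to EXPA15 were AT5G65860 (0.99), AT5G62210 (0.99) and AT3G26560 (0.98).

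EXPA7 and EXPA24 left the floor on the same array, M6PR 100 mM replicate 1, at 2.37 and 2.69, both below background. EXPB5, a beta-expansin at the floor on 6 other arrays, read 2.40 there.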
